A study of Mus musculus with 8 samples.

Results

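The type 1 vomeronasal receptor genes (Vmn1r) were followed through 8 lists of N6-methyladenine (6mA) peaks from mouse DNA. Members were all rows whose assigned gene symbol begins with Vmn1r, taken once per peak and symbol. This gave 404 rows, 397 peaks and 145 genes, out of 90798 peaks in all lists. The lists use mm10, which is the GRCm38 assembly. All 145 genes are protein coding in the RefSeq table for GRCm38.p6, which holds 231 protein-coding Vmn1r genes. The symbols of the other 86 were on no peak in any list. The lists can name a locus otherwise than the reference. A stem cell peak named Vmn1r118 (chr7:22227573-22227832) lay near the start of Vmn1r252 in the reference, which puts Vmn1r118 at 20911427 to 20912347. A symbol without a peak therefore need not be a locus without a peak. Of the 145 genes, 83 had a peak in brain, 117 in the stem cells and 55 in both.

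6mA was mapped by immunoprecipitating sonicated DNA with an antibody kit and calling peaks against untreated input. The NTD group was embryo brain with neural tube defects, whose mothers ate little folate and received methotrexate (MTX), a folate antagonist, as 1.5 mg/kg into the peritoneum on day 7.5 of gestation. The CON group was brain of normal embryos with saline recorded as treatment, and closure of the neural tube was judged between E9.5 and E10.5. The brain groups have 1 record each, which covers 3 immunoprecipitations, all called against the same input. FA0 and FA4 were Sv/129 mouse embryonic stem cells in medium without folate and with 4 mg/L folate, with 1 list each. Strain of the embryos, and whether brains were pooled, are not given in the sources used here. Whether separate embryos lay behind these 3 is not said, so that p-values here speak only of spread among immunoprecipitations, which may be technical. The smallest exact p that 3 against 3 lists allow is 0.1, and diet, drug and defect cannot be told apart.

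Vmn1r genes encode G protein-coupled receptors for pheromones and related cues. They are made in sensory neurons of the vomeronasal organ, which lies in the nose and not in the brain, and each such neuron expresses very few of them. The receptors signal through the G protein subunit encoded by Gnai2 and the channel encoded by Trpc2. The coding sequence is usually held in one exon, and the genes stand in tandem arrays made by repeated duplication, so that many have close copies. Neither embryo brain nor embryonic stem cells are known as places where these receptors act.

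In 5 cases a peak lay over the promoter window of a Vmn1r gene, that is the 250 bases before and 50 after the gene start in RefSeq (GRCm38.p6). The table held such windows for 206 Vmn1r genes, among them 127 of the 145 with a peak. The 5 windows are printed 5′ to 3′ on the gene's strand because they show what a peak at the start of a receptor gene covered and how alike the copies are. Capitals mark the bases under the peak.
Vmn1r103: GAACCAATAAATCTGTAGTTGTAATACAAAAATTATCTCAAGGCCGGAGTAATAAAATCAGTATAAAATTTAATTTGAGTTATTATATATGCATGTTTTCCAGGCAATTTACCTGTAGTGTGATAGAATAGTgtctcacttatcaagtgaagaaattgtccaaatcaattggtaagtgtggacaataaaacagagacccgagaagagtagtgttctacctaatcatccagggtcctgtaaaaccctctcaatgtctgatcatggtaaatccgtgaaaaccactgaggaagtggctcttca
Vmn1r143: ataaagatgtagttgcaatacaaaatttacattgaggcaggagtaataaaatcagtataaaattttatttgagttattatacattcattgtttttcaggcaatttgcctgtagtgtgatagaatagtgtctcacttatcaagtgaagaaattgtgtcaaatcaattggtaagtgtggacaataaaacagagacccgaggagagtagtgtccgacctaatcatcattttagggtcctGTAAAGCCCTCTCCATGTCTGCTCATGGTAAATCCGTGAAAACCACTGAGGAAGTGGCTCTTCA
Vmn1r167: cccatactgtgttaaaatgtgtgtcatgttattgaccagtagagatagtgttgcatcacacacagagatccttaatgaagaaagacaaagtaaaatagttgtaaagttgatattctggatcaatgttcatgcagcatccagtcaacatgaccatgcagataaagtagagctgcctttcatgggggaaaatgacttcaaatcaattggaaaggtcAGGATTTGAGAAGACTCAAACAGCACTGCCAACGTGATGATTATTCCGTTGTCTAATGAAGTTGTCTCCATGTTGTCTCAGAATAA
Vmn1r25: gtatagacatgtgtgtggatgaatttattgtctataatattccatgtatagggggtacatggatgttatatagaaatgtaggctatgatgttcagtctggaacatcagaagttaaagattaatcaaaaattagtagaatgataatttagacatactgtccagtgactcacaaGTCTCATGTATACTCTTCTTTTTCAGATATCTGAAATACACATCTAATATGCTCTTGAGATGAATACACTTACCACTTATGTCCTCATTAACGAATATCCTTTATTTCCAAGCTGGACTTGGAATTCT
Vmn1r27: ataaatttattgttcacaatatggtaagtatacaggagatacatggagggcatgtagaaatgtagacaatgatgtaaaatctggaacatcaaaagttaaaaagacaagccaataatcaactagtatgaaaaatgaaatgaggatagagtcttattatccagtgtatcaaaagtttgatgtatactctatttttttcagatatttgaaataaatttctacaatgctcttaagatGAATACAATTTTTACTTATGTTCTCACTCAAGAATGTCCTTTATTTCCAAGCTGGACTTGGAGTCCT

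The window of Vmn1r103 is chr7:20510485-20510784 on the minus strand, and the NTD replicate 3 peak covered 132 of its bases. That of Vmn1r143 is chr7:22189127-22189426 on the plus strand, with 64 bases under a CON replicate 2 peak. That of Vmn1r167 is chr7:23505540-23505839 on the minus strand, with 86 bases under an FA0 peak. That of Vmn1r25 is chr6:57979253-57979552 and that of Vmn1r27 is chr6:58215968-58216267, both on the minus strand. They had 128 bases under an NTD replicate 3 peak and 67 under an FA0 peak. These 5 peaks were weak. They held 7, 10, 7, 10 and 9 tags at Vmn1r103, Vmn1r143, Vmn1r167, Vmn1r25 and Vmn1r27, with deposited folds of 2.50, 2.52, 2.57, 3.44 and 2.69, and none had a deposited q at or below 0.05. No window was covered in more than 1 list.

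The Vmn1r103 and Vmn1r143 windows were 90.7% identical to each other, and Vmn1r25 and Vmn1r27 were 76.3% identical, while the other pairs lay between 59.7% and 62.7%. Each of the first pair also had an identical window elsewhere in the family, Vmn1r103 at Vmn1r151 and Vmn1r143 at Vmn1r95. Reads of that sequence cannot be told apart between the copies, so the gene under such a peak is uncertain. Of all 206 windows, 87 (42.2%) had a partner at 95% identity or more and 54 had an identical one. Copies were concentrated on chromosome 7, with 75 of 115 windows at 95% or more, against 12 of 91 windows elsewhere. Vmn1r windows were rich in A and T, with a median of 64.0% (range 48.7% to 75.7%) against 47.3% over 32851 RefSeq windows of the same length. They held a median of 1 CpG against 7, and 21.4% had none against 5.43%. The motif GATC, which reads the same on both strands and is methylated on adenine in many bacteria, was in 44.2% of Vmn1r windows, close to its 48% of all windows. It was in none of the 5 stretches in capitals. The share of Vmn1r windows under a peak was 0.971% in NTD replicate 3, 0.485% in CON replicate 2, 0.971% in FA0 and 0 in the other 5 lists. Over all windows the same share was 0.110%, 0.116% and 0.621% in these lists. The Vmn1r shares rest on 2, 1 and 2 windows.

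Long lists held more Vmn1r peaks than short ones, with the exception that CON replicate 1, the shortest list, had more than CON replicate 3. Lists held 5790, 5620 and 7100 peaks in NTD, 2797, 6614 and 3992 in CON, 38699 in FA0 and 20186 in FA4. Of these, 29, 23 and 32 peaks were assigned to a Vmn1r gene in NTD, 17, 30 and 14 in CON, 182 in FA0 and 70 in FA4. Sequencing depth is unknown beyond the tags at peaks, and whether a tag value is the sum over a peak or its height at the summit is not stated. The median Vmn1r peak held 8 or 9 tags in every list, equal to the median of all peaks of that list, and 88.7% of Vmn1r peaks held 10 tags or fewer. No Vmn1r peak had a deposited fold of 5 or more, and the highest was 4.82.

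Vmn1r genes took overlapping shares of the peaks in the brain groups. The share was 0.501%, 0.409% and 0.451% of the list in NTD (0.454 ± 0.0459%, SD, n = 3) and 0.608%, 0.454% and 0.351% in CON (0.471 ± 0.129%, SD, n = 3). The groups overlapped, with the highest and the lowest value both in CON, and the difference of -0.0171 percentage points was smaller than the spread between lists (two-sided p = 0.8 by the exact permutation test, or 0.914 after Benjamini-Hochberg adjustment over 8 comparisons). The number of Vmn1r genes with a peak was 22, 22 and 23 in NTD (22.3 ± 0.577, SD, n = 3) and 16, 24 and 12 in CON (17.3 ± 6.11, SD, n = 3). The mean was higher in NTD, but CON replicate 2, the longest CON list, exceeded every NTD list (exact permutation test, two-sided p = 0.4, adjusted p = 0.64). Without CON replicate 2 the difference rose from 5 to 8.33 genes (exact p = 0.1, the smallest possible), and without CON replicate 3 it fell to 2.33.

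**Figure D1:**
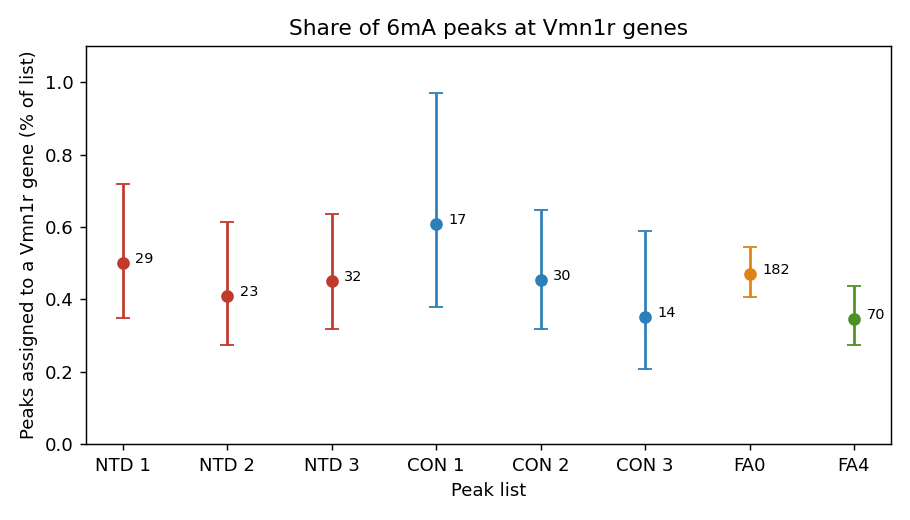
Share of the peaks of each list (y axis, percent) assigned to a Vmn1r gene, by peak list (x axis), with Wilson 95% intervals for counting error as bars and the number of Vmn1r peaks beside each point. The shares run from 0.347% in FA4 to 0.608% in CON replicate 1, and the NTD and CON points overlap.

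No Vmn1r gene separated the brain groups. None of the 83 genes with a brain peak was peaked throughout the 3 NTD lists and absent from CON, a pattern found for 0.96% of all 14369 genes with a brain peak. None had the reverse either, against 0.223% of all genes. At these low shares 0 of 83 is near the background and is no result about the members. Most members were seen once: 61 of the 83 genes had a peak in 1 brain list and 14 in 2. A peak in at least 3 of the 6 brain lists was found for 8 genes (9.64%), against 17.7% of all genes with a brain peak. These 8 were Vmn1r238 in 6 lists, Vmn1r26, Vmn1r77 and Vmn1r160 in 4, and Vmn1r2, Vmn1r3, Vmn1r103 and Vmn1r159 in 3.

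In the cells, FA0 had peaks at 102 Vmn1r genes and FA4 at 50. With FA0 cut to as many peaks as FA4, those of highest fold, it had 62, and at q of at most 0.05 the order turned, with 3 genes in FA0 and 6 in FA4. As a share of the list, Vmn1r peaks made up 0.470% (Wilson 95% interval 0.407 to 0.544) in FA0 and 0.347% (0.275 to 0.438) in FA4, and the intervals overlap. Wilson intervals here cover counting error only, and FA0 and FA4 have 1 list each, so no test of their difference was made. Without chromosome 8, a setting planned beforehand, the shares were 0.519% in FA0 and 0.427% in FA4. Without chromosome 7, where FA4 held few peaks of any kind, the shares were 0.308% and 0.283%, a setting chosen after the values were seen. Both conditions had a peak at 35 of the 117 genes (29.9%), against 41.9% of all genes with a peak in either list. The 35 were Vmn1r1, Vmn1r2, Vmn1r3, Vmn1r6, Vmn1r16, Vmn1r20, Vmn1r26, Vmn1r27, Vmn1r29, Vmn1r30, Vmn1r33, Vmn1r39, Vmn1r41, Vmn1r45, Vmn1r46, Vmn1r47, Vmn1r51, Vmn1r52, Vmn1r56, Vmn1r57, Vmn1r64, Vmn1r73, Vmn1r75, Vmn1r76, Vmn1r77, Vmn1r124, Vmn1r169, Vmn1r174, Vmn1r206, Vmn1r213, Vmn1r216, Vmn1r223, Vmn1r224, Vmn1r235 and Vmn1r238. A shared gene was rarely a shared site. Only 3 FA0 peaks (1.65% of 182) and 3 FA4 peaks (4.29% of 70) overlapped a peak of the other condition by at least 1 base, against 1.8% and 3.44% over all peaks of the lists. They lay at Vmn1r39, at a site between Vmn1r56 and Vmn1r57, and at Vmn1r238.

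By position, the Vmn1r clusters as a whole held peaks at close to the density of the rest of their chromosomes, while single clusters lay above or below it. Vmn1r genes and pseudogenes of the reference were joined where gaps were at most 1000000 bases, and groups of at least 3 entries were kept. This gave 12 clusters on 6 chromosomes, 13.2 Mb in all. All peaks whose centre lay in a cluster were counted, whatever gene they were assigned to. Density in the clusters over that of the rest of the same chromosomes was 1.16, 0.935 and 1.07 in NTD (1.05 ± 0.112, SD, n = 3) and 1.17, 1.05 and 1.34 in CON (1.19 ± 0.143, SD, n = 3). The groups overlapped (exact permutation test, two-sided p = 0.4, adjusted p = 0.64). FA0 had a ratio of 1.04 (95% interval 0.909 to 1.18, counting error only) and FA4 1.02 (0.816 to 1.27). The interval of this pooled ratio included 1 in every list.

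**Figure D2:**
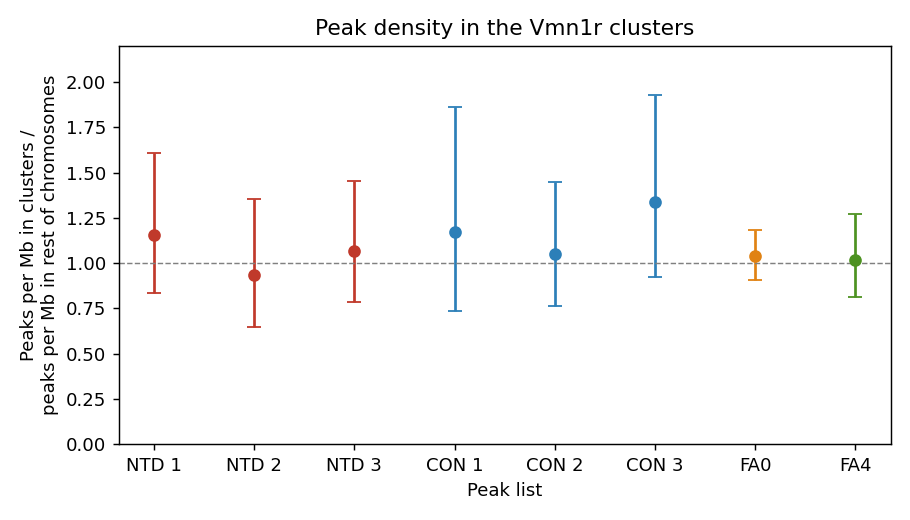
Peaks per megabase inside the 12 Vmn1r clusters divided by peaks per megabase in the rest of the same chromosomes (y axis), by peak list (x axis), with 95% intervals for counting error derived from the Wilson interval. The dashed line marks a ratio of 1, which lies inside the interval of every list, and the points run from 0.935 in NTD replicate 2 to 1.34 in CON replicate 3.

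The clusters differed in how much of the signal they held. The largest lies on chromosome 7 from 20101158 to 24055691 and has 99 entries, 86 of them protein coding. It held 8, 7 and 8 Vmn1r peaks in NTD, 3, 6 and 4 in CON, 23 in FA0 and 4 in FA4. In brain this was 17.6% to 30.4% of the Vmn1r peaks of a list, against 12.6% in FA0 and 5.71% in FA4. Of its 86 coding genes in the reference, 34 had their symbol on a peak in any list. The symbols Vmn1r240 to Vmn1r260, all in this cluster, were on no peak. A peak beside Vmn1r252 was named Vmn1r118 in FA0, so this count is of symbols and can miss peaked loci. Counted by position, its density over the rest of chromosome 7 was between 0.936 and 1.65 in the 6 brain lists, 0.466 in FA0 (95% interval 0.320 to 0.680) and 0.631 in FA4 (0.304 to 1.31). FA0 was below the rest of the chromosome beyond counting error, while FA4 and each brain list had intervals that included 1. It was the 1 case below the rest of its chromosome beyond counting error among 96 pairs of a cluster and a list. In 16 pairs the ratio was above 1 beyond counting error. The cluster around Vmn1r238 on chromosome 18 made up 7 of them, with ratios of 13.8, 10.4 and 6.87 in NTD, 9.39 and 15.9 in CON replicates 2 and 3, 4.73 in FA0 and 5.81 in FA4, each on 2 to 7 peaks, and it held none in CON replicate 1. The chromosome 6 cluster of 3 pseudogenes had 3 such ratios, 14.3 and 10.6 in CON replicates 1 and 2 on 1 and 2 peaks and 4.42 in FA0 on 7 peaks. It spans 3072180 to 3144564, and the chromosome 18 cluster spans 3026901 to 3123412. Both are short and lie beside the centromere, where the assembled sequence begins. The cluster from 66552183 on chromosome 6 had 4.55 (95% interval 1.54 to 13.4) in CON replicate 2 and 1.98 (1.11 to 3.56) in FA0, and the one from 89698657 had 2.29 (1.28 to 4.12) in FA4. On chromosome 7 the cluster from 5146490 had 1.93 (1.30 to 2.89) in FA0, and the one from 10273828 had 1.84 on 15 peaks in NTD replicate 3 and 1.85 (1.11 to 3.08) in FA4. These are intervals of single lists, with no adjustment for the number of pairs. Chromosome 7 is also the chromosome where near-identical windows were concentrated, and the part of sequence copies in the low FA0 value of the largest cluster was not tested. Different transcript sets were used to annotate the brain and the cell lists, which bears on the assigned genes but not on the counts by position.

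The neighbouring chromosome 7 cluster from 10273828 to 13244458, with 24 coding genes, held 7, 2 and 9 Vmn1r peaks in NTD, 3, 2 and 3 in CON, 22 in FA0 and 7 in FA4, and 21 of the 24 genes had a peak in some list. NTD replicates 1 and 3 were the high brain lists, and NTD replicate 2 lay with the CON lists. The cluster from 5146490 to 6011010 held 3, 2 and 2 in NTD, 3, 1 and 0 in CON, 20 in FA0 and 3 in FA4. Chromosome 7 as a whole held 37.9% of the Vmn1r peaks in FA0 (Wilson 95% interval 31.2 to 45.1) and 14 of 70 in FA4 (12.3% to 30.8%). Of all FA0 and FA4 peaks it held 5.31% and 1.96%, so the list as a whole was also low there in FA4.

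On chromosome 6 the cluster from 56923914 to 58504695, with 28 coding genes, was the one with the most Vmn1r peaks in both cell lists, 32 in FA0 and 15 in FA4, but few in brain, with 2, 0 and 4 in NTD and 1, 3 and 2 in CON. The cluster from 66552183 to 66805332 held 15 in FA0 and 2 in FA4, and 5 of the 8 in brain came from CON replicate 2. The cluster from 89698657 to 90270053 held 14 in FA0, 11 in FA4 and at most 1 in a brain list. Chromosome 6 held 61 of the 182 Vmn1r peaks in FA0 and 28 of 70 in FA4, and 8.31% and 6.12% of all peaks of these lists. The chromosome 13 cluster from 22057168 to 23269501 had 3, 3 and 3 in NTD, 2, 4 and 1 in CON, 22 in FA0 and 8 in FA4. The chromosome 17 cluster from 20121717 to 21323764 had 6 in each cell list and 0 to 3 in the brain lists.

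**Figure D3:**
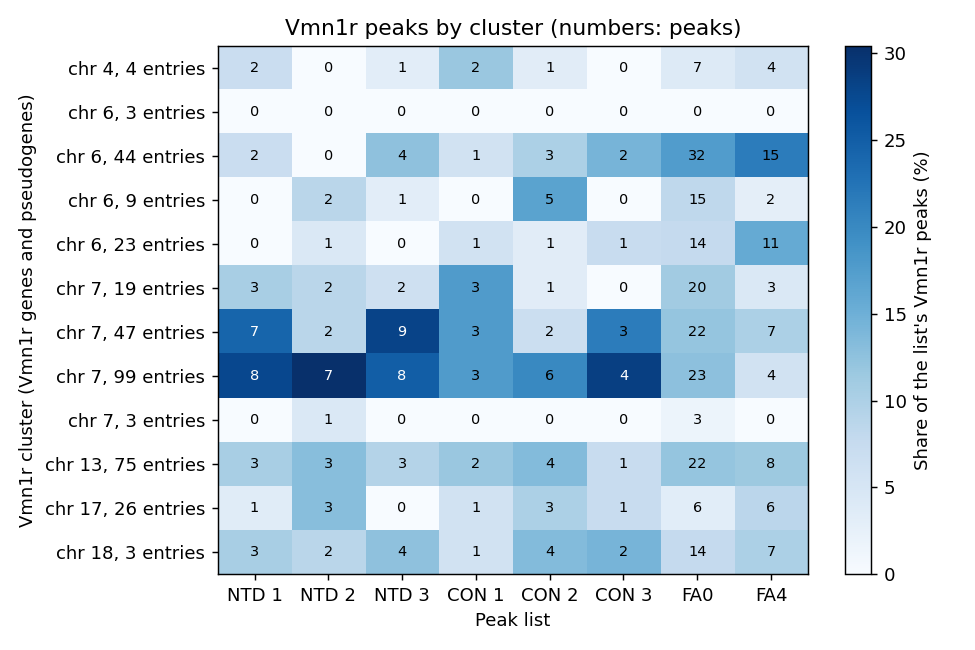
Vmn1r peaks by cluster (rows, named by chromosome and number of Vmn1r genes and pseudogenes) and peak list (columns). Numbers are peaks and the shade is their share of the list's Vmn1r peaks in percent. The cluster of 99 entries is the darkest row in several brain lists and pale in FA4 with 4 peaks, and the chromosome 6 cluster of 44 entries is darkest in the cells.

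The largest class of Vmn1r peaks, as of all peaks in each list, was intergenic. Of 397 peaks, 222 (55.9%) were classed by the authors as intergenic, 128 (32.2%) as upstream (2000 to 20000 bases before the start), 41 (10.3%) as promoter (within 2000 bases of the start on either side), and 3 each as exon and intron. By list, from 7 of 14 to 70.6% of Vmn1r peaks were intergenic, against 47.1% to 53.9% of all peaks. The upstream class held 21.9% to 35.7% of Vmn1r peaks by list, against 12.7% to 18.3% of all peaks, and was the higher for Vmn1r in every list. Class shares are parts of a whole, so the low intron share of Vmn1r peaks, given below, leaves more to the other classes by construction. The promoter class alone held 6.90% (2 peaks), 3 of 23 and 21.9% of Vmn1r peaks in NTD, 0, 10.0% and 21.4% in CON, 9.89% in FA0 and 7.14% in FA4. Over all peaks it held 6.34%, 6.32% and 6.38% in NTD, 6.44%, 6.24% and 7.29% in CON, 3.19% in FA0 and 3.07% in FA4, so that the Vmn1r share was the higher in 7 of the 8 lists, from 2 to 18 peaks a list. The class reaches 2000 bases past the start, which takes in the whole of a Vmn1r gene of median length. In longer genes such peaks can be classed as exon or intron, so the 2 shares are not like measures. A peak in the gene or its promoter made up 6.90%, 17.4% and 21.9% of Vmn1r peaks in NTD (15.4 ± 7.69%, SD, n = 3) and 5.88%, 16.7% and 21.4% in CON (14.7 ± 7.97%, SD, n = 3). The ranges nearly coincide (exact permutation test, two-sided p = 0.7, adjusted p = 0.914). It was 10.4% in FA0 (Wilson 95% interval 6.79 to 15.7) and 8.57% in FA4 (3.99 to 17.5). Over all peaks of a list promoter, exon and intron together held 31.9% to 37.5%. Introns alone took 23.8% to 33.2% of all peaks and at most 4.35% of Vmn1r peaks, and the median coding Vmn1r gene is only 0.924 kb long. The median distance from peak centre to gene start was 7.35 to 12.8 kb in the brain lists, 13.5 kb in FA0 and 11.4 kb in FA4. For all peaks it was 23.5 to 28.4 kb in brain and 49.6 and 60.8 kb in the cells.

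**Figure D4:**
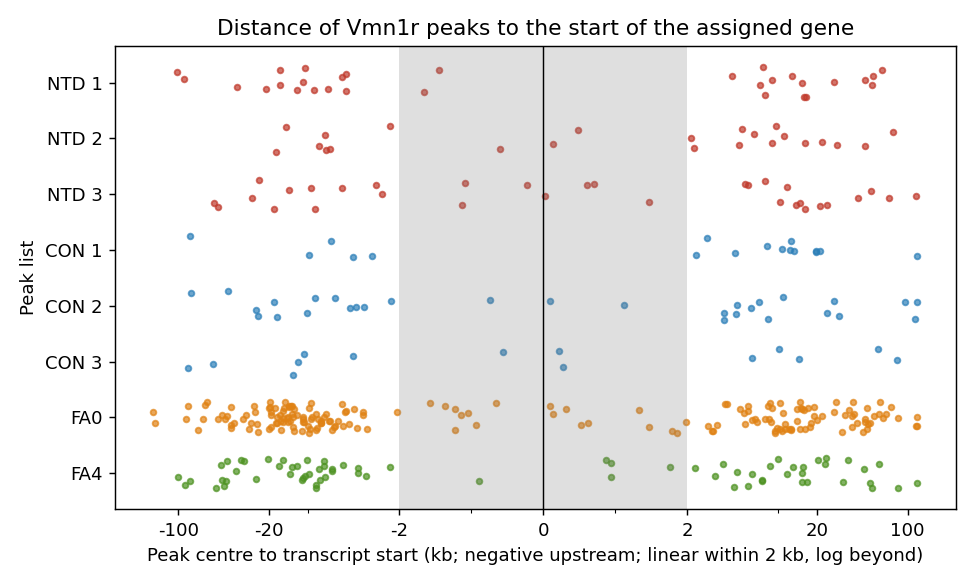
Distance from the centre of each Vmn1r peak to the start of the assigned transcript (x axis, kb, negative upstream, linear within 2 kb and logarithmic beyond), by peak list (rows). The grey band marks the 2 kb on either side that define the promoter class, which is empty in CON replicate 1 and holds 2 to 7 peaks in the other brain lists.

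By the transcript that each list assigned, a peak reached the body of the gene in 25 cases at 21 genes (6.30% of Vmn1r peaks). Of these, 23 also overlapped the gene at its coordinates in the RefSeq reference. The other 2, at Vmn1r3 and Vmn1r13 in NTD replicate 3, lay in longer transcripts assigned by the brain list. A further 6 peaks, at Vmn1r4 and Vmn1r63 in FA0 and Vmn1r5 in FA4, overlapped the gene of the reference but not the transcript of the list. By the transcripts of the lists, the genes in brain were Vmn1r32, Vmn1r34 and Vmn1r63 in NTD replicate 2, Vmn1r3, Vmn1r13, Vmn1r25 and Vmn1r100 in NTD replicate 3, Vmn1r58 in CON replicate 1, Vmn1r32 with 2 peaks and Vmn1r143 in CON replicate 2, and Vmn1r40 and Vmn1r86 in CON replicate 3. In FA0 they were Vmn1r27, Vmn1r45, Vmn1r56, Vmn1r58, Vmn1r91, Vmn1r167, Vmn1r174 and Vmn1r195. In FA4 they were Vmn1r2, Vmn1r25, Vmn1r77 and Vmn1r235. Vmn1r25, Vmn1r32 and Vmn1r58 were the genes with a peak in the body in more than 1 list, at different bases each time. Vmn1r32, which spans 66552183 to 66559708 on chromosome 6, had intron peaks at 66554524 to 66554794 in NTD replicate 2 and 66555773 to 66556006 in CON replicate 2, with 9 tags each and folds of 3.19 each.

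Vmn1r238 had the most peaks of all members. It stands at the centromeric end of chromosome 18 (3122492 to 3123412), where the assembled sequence begins at about base 3000000 and the next coding gene, Crem, starts at 3266354, so that peaks of this stretch are assigned to it. It had 3, 2 and 4 peaks in NTD, 1, 4 and 2 in CON, 14 in FA0 and 7 in FA4, that is 37 of the 404 rows. It was the member peaked in every list. Most of its peaks lay on the centromeric side of the gene, with 3, 2 and 3 in NTD, 1, 4 and 2 in CON, 10 in FA0 and 4 in FA4. Of the 9 Vmn1r peaks with over 50 tags, 8 were at Vmn1r238. One site, starting at 3005715 in the CON lists, had 478 tags in CON replicate 1, 398 in CON replicate 2 and 591 in FA0, with folds of 1.73, 1.83 and 2.42. A neighbouring site at 3004779 to 3005065 had 225 tags in FA0 and 102 in FA4, with folds of 2.38 and 1.88. At both sites the background implied by the fold was raised, from 53.9 to 275.5 tags against a common value of 1.86 to 2.69 tags per list, so that high tag counts went with a high background. A peak of NTD replicate 1 at 3096265 to 3096529, with 14 tags at the common background, had the highest fold of any Vmn1r peak (4.82), and CON replicate 2 had a peak of 7 tags and fold 2.55 at the same place. Without Vmn1r238 the brain shares of Vmn1r peaks were 0.406% in NTD and 0.422% in CON (exact p = 0.9), a setting chosen after the values were seen.

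Sites held by more than 1 list were few. In brain, 4 of 145 Vmn1r peaks (2.76%) overlapped a peak of another brain list, against 4.13% of all brain peaks. All 4 belonged to the pair of Vmn1r238 sites that start at 3005715 and 3096265, the former in CON replicates 1 and 2 and the latter in NTD replicate 1 and CON replicate 2. Outside Vmn1r238, the site held by the most lists was on chromosome 7 at 5206465 to 5206786, 9.88 kb upstream of the start of Vmn1r56 in FA0. It had 11 tags and fold 2.84 in CON replicate 1, 15 tags and fold 2.65 in FA0, and 12 tags and fold 4.12 in FA4, where q was 0.0234. Its background was raised in all 3 lists. Single matches between a brain list and a cell list were also found at Vmn1r2 (CON replicate 1 and FA4), Vmn1r6 (CON replicate 1 and FA0), Vmn1r41 (CON replicate 2 and FA4) and Vmn1r46 (CON replicate 1 and FA4). An FA4 peak of Vmn1r3 overlapped a CON replicate 3 peak that was not assigned to a Vmn1r gene.

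A deposited q of at most 0.05 was found for 16 Vmn1r peaks, of which 9 were at Vmn1r238. By list they numbered 1, 0 and 1 in NTD, 2, 2 and 0 in CON, 5 in FA0 and 5 in FA4. As a share of the Vmn1r peaks this was 3.45%, 0 and 3.13% in NTD, 11.8%, 6.67% and 0 in CON, 2.75% in FA0 and 7.14% in FA4. Over all peaks the share at that limit was 1.12%, 1.16% and 0.831% in NTD, 2.36%, 1.18% and 1.85% in CON, 2.67% in FA0 and 4.68% in FA4. The Vmn1r share was above that of all peaks in 6 lists and 0 in the other 2, on 5 peaks or fewer in each list. Most Vmn1r peaks at that limit had a raised background. These were 0, 0 and 1 in NTD, 2, 2 and 0 in CON, 4 in FA0 and 3 in FA4. In brain the only Vmn1r peak at that limit outside Vmn1r238 was at Vmn1r2 in CON replicate 1 (chromosome 4, 3091043 to 3091443, 81 tags, fold 2.02, q = 5.73e-04). It lay 80.8 kb upstream of the gene start, with a background of 39.6 tags against the common 2.57 of that list. In FA0 those outside Vmn1r238 were the promoter peaks of Vmn1r39 (66806336 to 66806590 on chromosome 6, 12 tags, fold 4.17, q = 0.0180) and Vmn1r117 (20884647 to 20884892 on chromosome 7, 14 tags, fold 4.12, q = 0.00706). The Vmn1r117 peak had a background of 2.64 tags against the common 2.12. The promoter window of Vmn1r117 was identical to that of Vmn1r241, and the sequence under the peak, outside that window, was not compared. In FA4 the promoter peak of Vmn1r2 covered the end of the gene (3172722 to 3173199, 15 tags, fold 4.54, q = 0.00100). The others in FA4 were intergenic at Vmn1r42 and upstream of Vmn1r74, with 11 tags and fold 4.19 each, and the site shared by Vmn1r56 and Vmn1r57.

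Among the other often peaked genes, the peaks of a gene were scattered over its surroundings. Brain and cell lists could place the start of a gene differently, as at Vmn1r3 and Vmn1r77, so distances are each list's own. Vmn1r77 had 2, 0 and 3 peaks in NTD, 1, 1 and 0 in CON, 1 in FA0 and 2 in FA4, at distances from 53.6 kb downstream to 52.7 kb upstream of its start. Its CON replicate 2 peak (12012562 to 12012802, 13 tags, fold 3.79) ended just before its NTD replicate 3 peak (12012822 to 12013050, 12 tags, fold 3.35), so the peaks were adjacent without an overlap. Vmn1r26 had 1, 0 and 1 in NTD, 0, 1 and 1 in CON, 2 in FA0 and 1 in FA4, all of them 49.1 to 90.2 kb upstream. Vmn1r3 had 1, 0 and 1 in NTD, 1, 0 and 0 in CON, 6 in FA0 and 1 in FA4, and Vmn1r57 had 5 in FA0 and 2 in FA4 against 1 each in NTD replicate 3 and CON replicate 2. Vmn1r1, which lies on chromosome 1 outside the clusters, had 3 peaks in each cell list and none in brain. Vmn1r103, Vmn1r159 and Vmn1r160, all in the large chromosome 7 cluster, had 5, 4 and 4 brain peaks and none in the cells. Their promoter windows were at least 99.7% identical to that of another member, and the sequence under their peaks outside these windows was not compared.

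**Figure D5:**
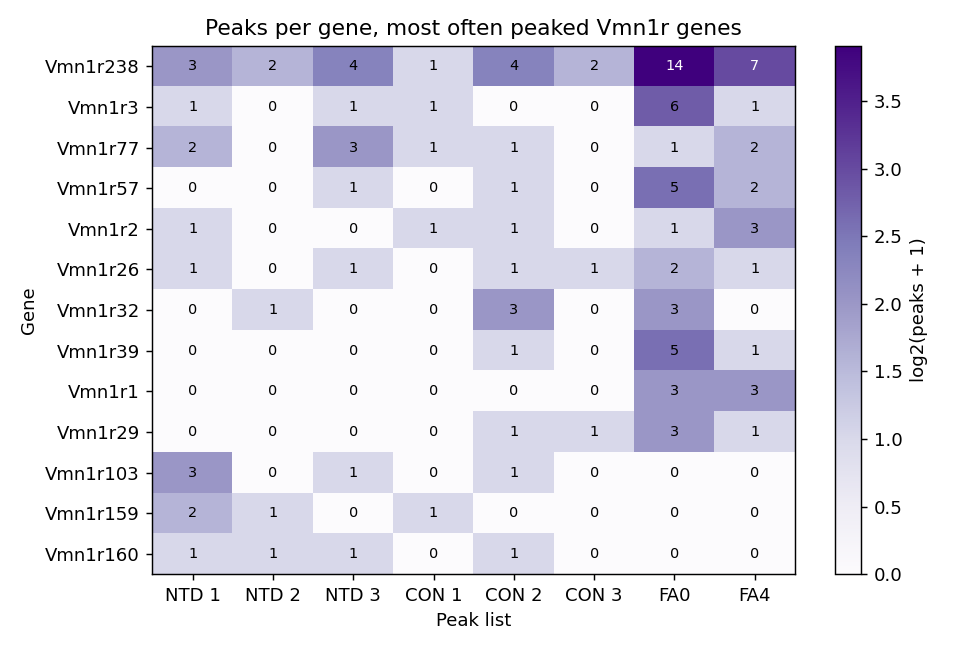
Number of peaks (numbers in cells, shade as log2 of peaks plus 1) at the 10 Vmn1r genes with the most peaks and the genes peaked in at least 3 brain lists (rows), by peak list (columns). Vmn1r238 is the row without a 0, and Vmn1r103, Vmn1r159 and Vmn1r160 are at 0 in both cell lists.

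Set beside related receptors, the share of protein-coding Vmn1r genes with a peak was 9.52%, 9.52% and 9.96% in NTD, 6.93%, 10.4% and 5.19% in CON, 44.2% in FA0 and 21.6% in FA4. Over all protein-coding genes it was 11.1%, 10.7% and 12.8%, 5.69%, 12.3% and 8.09%, 46.4% and 29.8% in the same order. Vmn2r genes, which encode the other large class of vomeronasal receptors, were at 8.94%, 18.7% and 15.4% in NTD and 5.69%, 13.8% and 5.69% in CON, and at 70.7% in FA0 and 51.2% in FA4. Olfr genes, the odorant receptors of the main olfactory system, were at 2.79% to 6.04% in brain, 31.5% in FA0 and 18.2% in FA4. Genes were counted by symbol, and a symbol of the reference can be missing from the lists. These families differ in gene length and spacing, and the differences between families were not tested. For the 4 other receptor families (Vmn2r, Olfr, Taar and Fpr) NTD and CON overlapped in every case (exact permutation tests, two-sided p = 0.2 to 1, adjusted p = 0.64 or more).

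Genes of vomeronasal signalling and of the sensory neurons were also read from the lists. Of 34 genes, 26 had a peak in some list: 5, 5 and 7 genes in NTD, 0, 5 and 4 in CON, 21 in FA0 and 14 in FA4. This was 61.8% of the 34 in FA0 and 41.2% in FA4, against 46.4% and 29.8% of all protein-coding genes, and gene length was not matched. In NTD it was 14.7%, 14.7% and 20.6%, against 11.1%, 10.7% and 12.8% of all protein-coding genes. In CON it was 0, 14.7% and 11.8%, against 5.69%, 12.3% and 8.09%. The list held signalling genes (among them Trpc2, Gnai2, Gnao1, Gng8, Gng2, Gnb1, Plcb2, Ric8b, Itpr3, Ano1, Ano2 and Adcy3), genes of the neurons and their axons (among them Omp, Ncam2, Robo2, Nrp2, Kirrel2 and Kirrel3) and transcriptional regulators (among them Bcl11b, Tfap2e, Meis2, Lhx2, Ldb1, Emx2 and Ebf1). Gnai2 and Omp, a marker of mature olfactory and vomeronasal neurons, had none. Trpc2 had 1 peak, in FA0 (fold 3.21), and Gng8, a G protein gamma subunit of these neurons, had 1 as well (FA0, fold 3.21). Gnao1, whose product couples to Vmn2r receptors, had 9 peaks in each cell list and none in brain. It lies on chromosome 8. Without chromosome 8, which held no Vmn1r peak, the Vmn1r share rose from 0.470% to 0.519% in FA0 and from 0.347% to 0.427% in FA4. Whether the Gnao1 counts go beyond the load of peaks on that chromosome was not tested. The genes with the most peaks were the long cell adhesion and guidance genes. Ncam2 (424 kb) had 1, 1 and 5 peaks in NTD, 0, 3 and 1 in CON, 11 in FA0 and 22 in FA4. Most of the Ncam2 peaks in the cells were intergenic, as far as 1490203 bases from the start in FA0 and 1237691 in FA4. Counts for Kirrel3 and Robo2 also take in intergenic peaks. Kirrel3 (555 kb) had 0, 2 and 6 in NTD, 0, 0 and 1 in CON, 15 in FA0 and 8 in FA4. Robo2 (1555 kb) had 4, 1 and 3 in NTD, 0, 5 and 2 in CON, 6 in FA0 and 7 in FA4. CON replicate 1, the shortest list, had none at any of the 34.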

How the data were processed

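DNA was sonicated and 6mA-bearing fragments were pulled down with a kit, per the labels' protocols. The submitters' processing notes name cutadapt 1.9.2, Bowtie2 2.2.4 and mm10. The name of the peak caller was not given in the sources used here. Each of the 8 deposited lists has a row for every peak and transcript. Lists headed Control were read as CON, and those headed Case as NTD, the remaining brain group. Tags per peak are a whole-number count in the deposited lists, going by the values; whether it is a sum over the peak or a height at the summit is not stated, which bears on the background computed from it. Significance is deposited as −log10 of the p-value and q-value, with no p over 0.01. The fold in the deposited lists is a ratio to background. Background was computed as tags plus 1 over fold, less 1, and called raised where over 1% above the commonest value of the list.

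Rows were reduced to 1 per peak and symbol, keeping the nearest transcript start; distances run from the peak centre. Genes were placed in clusters by start, with 20000 bases allowed on either side. Chromosome lengths were taken from base 3000000 to the last gene, and reference entries before that base were left out. Brain groups were compared with the exact permutation test over 20 assignments of 6 lists (two-sided), with Benjamini-Hochberg adjustment over 8 comparisons. Promoter windows were aligned globally with Biopython 1.88. Other tools were Python 3.11.15, numpy 2.4.6, pandas 2.3.3, scipy 1.17.1 and matplotlib 3.10.9. The reduction of rows, the exact permutation test and the finding of overlaps were tested on simulated lists, and the other steps were not. Values of 1 gene of the signalling and neuron list are not reported here.

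The members and lists were chosen with earlier results of these data known. Genes were named where peaked in both cell lists or in at least 3 brain lists, among the 10 with most peaks, with the highest fold of a list, with q at most 0.05, with a site overlapping another list, or among the 10 leading promoter or exon peaks; other genes named by where their peaks lay were named with their values known. The alternatives tried were a fold of at least 5, q at most 0.05, the common background alone, peaks within 10000 bases of the start or inside the gene, each brain list left out, same-numbered lists paired, autosomes alone, FA0 cut to the length of FA4, no chromosome 8, an overlap of 50% and a cluster gap of 500000 bases; leaving out Vmn1r238 or chromosome 7 was chosen after seeing the data.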

Additional observations from a re-analysis of the deposited data

How the results depend on the processing

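No brain comparison passed 0.05 under any setting, and none could. With each brain list left out in turn, the NTD minus CON difference ranged from -0.0771 to 0.0515 percentage points for the share of Vmn1r peaks, from 2.33 to 8.33 for the number of genes, from -3.66 to 4.97 percentage points for peaks in the gene or its promoter, and from -0.199 to -0.0573 for the density ratio. The share of peaks changed sign at the common background (0.00381) and within 10000 bases of the start (0.0216), and peaks in the gene or its promoter did so within 10000 bases (-4.58). At q at most 0.05 the difference was -0.787 percentage points for the share, against -0.0171 over all peaks, -0.333 genes and 2.37 for the density ratio, from very few peaks. The fold of at least 5 left no Vmn1r peak and no value for those results.

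In the cells, q at most 0.05 left 3 genes in FA0 and 6 in FA4, shares of 0.484% and 0.529%, against 0.470% and 0.347% over all peaks, a density ratio of 0.184 in FA0 and 1 overlapping peak in each list. The common background alone gave 0.400% in FA0 and 1 overlapping peak in each list. Within 10000 bases, 60 genes in FA0 and 26 in FA4 had a peak and 1 peak in each list overlapped. With FA0 cut to the length of FA4, 62 FA0 genes had a peak and 1 peak in each list overlapped. Without chromosome 7, FA0 had a share of 0.308% and 55 genes. Fewer peaks are left by construction in these settings; other causes were not tested.

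The deviations of same-numbered NTD and CON lists over 257 bins had correlations of 0.0446, -0.0637 and -0.0472. What the shared number stands for is not said. Few sites recurred between lists, so these correlations cannot decide whether same-numbered lists were handled together. With this replicate block the differences of -0.0171, 5, 0.728 and -0.132 had paired exact p = 0.75, 0.5, 0.25 and 0.25, where 0.25 is the smallest possible.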

Other observations

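Symbols V1rd19 and V1ra8, older names of the same receptor class that do not begin with Vmn1r and could not be matched in the reference table, were outside the rule. V1rd19 had 1 peak in NTD replicate 1 and 2 in FA0. V1ra8 had 1 peak in NTD replicate 2 and 3 in FA0. Neither had a peak in a CON list or in FA4.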
